A study of Mus musculus with 16 samples.

Results

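Psat1, Phgdh, Psph, Shmt1, Shmt2, Mthfd2 and Asns are 7 genes of serine, one-carbon and asparagine synthesis, measured here in 6 sorted fractions of mouse duodenal crypt cells. They were selected on measured values of these arrays, since Psat1 was higher in BRAF G than in luc G. That comparison is given below as a description with no test. The 7 genes, matched by the platform's gene symbol, have 10 probes among the 16593 named genes of the arrays. All 10 probes passed the filter on dim probes, and all 7 genes were among the 10607 genes tested.

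Serine is made from a glycolytic intermediate in a short chain of reactions. Phgdh, phosphoglycerate dehydrogenase, opens the chain, Psat1, phosphoserine aminotransferase, adds nitrogen from glutamate, and Psph, phosphoserine phosphatase, releases serine. Shmt1 in the cytosol and Shmt2 in mitochondria split serine into glycine and a carbon unit carried by folate, and Mthfd2 oxidises that unit in mitochondria. Asns, asparagine synthetase, is like several of these genes a known target of the amino acid response factor ATF4. Carbon units from this chain are used in purine and thymidylate synthesis, which dividing cells need.

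RNA was measured on 16 Illumina bead arrays, 1 for each sorted fraction. The groups were BRAF RG, BRAF G, BRAF R and BRAF NEG, each from the same 3 mice, and luc RG and luc G, both from the same 2 mice. Fractions with the same replicate number in their sample titles were taken as coming from the same mouse. All mice had a mixed B6/129S6 background, were 8 to 12 weeks old and carried green EGFP as a reporter of Lgr5, a stem cell gene. All of them drank doxycycline at 4 mg/ml in 1% sucrose for 24 h, which switched on a red TdTomato fusion with BRAF(V600K), an oncogenic form of the kinase BRAF, or with luciferase as the control. RG cells were high in green and red, G cells high in green and low in red, R cells low in green and high in red, and NEG cells low in both. By their labels G and NEG cells were transgene negative, so BRAF G and luc G differ in the mouse line and not in a labelled transgene of the sorted cells. No source used here names the promoter driving the transgene. Mouse line and transgene cannot be told apart between BRAF and luc fractions.

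The fractions differed in more than the transgene. Lgr5, the gene behind the green gate, had intensities of 168.3 to 182 in BRAF RG, 243.6 to 595.9 in BRAF G, 94.9 to 165.2 in BRAF R and 166.5 to 362.7 in BRAF NEG. It reached 138.1 to 141 in luc RG and 375.4 to 538.2 in luc G, so Lgr5 RNA in the BRAF RG arrays lay within the range of BRAF NEG. The summed intensity of 12 stem cell genes was 8916 to 10143 in BRAF RG, below BRAF NEG (10932 to 12993) and BRAF G (14729 to 16453). Cdh1, an epithelial adhesion gene, was at 10557.9 or more on every array. Ptprc, the pan-leukocyte marker, was above the array median in BRAF NEG (597.8 to 919.5) and on no array of another group. Other leukocyte genes were not confined to BRAF NEG. Ccl5 exceeded the median on all BRAF R arrays too (122.9 to 316.3). Of 20 leukocyte genes, a median of 20 exceeded it in BRAF NEG, and of 6.5 (luc RG) to 8.5 (luc G) in the other groups. These are bulk arrays, in which fewer cells of a type and less RNA per cell cannot be told apart. An array's median intensity lay between 118.9 and 119.9, and it is used below as a mark for dim signals, not as a detection limit.

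By RefSeq, in the mouse build GRCm38.p6, Psat1 lies at chr19:15905123-15925059, Phgdh at chr3:98313171-98339969, Psph at chr5:129765558-129787443 and Shmt1 at chr11:60788897-60811265. Shmt2 lies at chr10:127517123-127522444, Mthfd2 at chr6:83305704-83326011 and Asns at chr6:7675165-7693209. The sequence before an annotated transcript start is shown for 3 of them, Psat1 as the gene that led the choice, Mthfd2 as the gene with the most CCAAT matches and Asns as the gene with the amino acid response motif. Each window is the 250 bases before a RefSeq start in the same build, read 5′ to 3′ on the minus strand, and capitals mark the motif matches on either strand. The windows are chr19:15925060-15925309 for Psat1, chr6:83317605-83317854 for Mthfd2 and chr6:7693210-7693459 for Asns. The Mthfd2 window lies inside the Mthfd2 locus given above, before a start that is internal to it, and not upstream of the whole gene.
Psat1: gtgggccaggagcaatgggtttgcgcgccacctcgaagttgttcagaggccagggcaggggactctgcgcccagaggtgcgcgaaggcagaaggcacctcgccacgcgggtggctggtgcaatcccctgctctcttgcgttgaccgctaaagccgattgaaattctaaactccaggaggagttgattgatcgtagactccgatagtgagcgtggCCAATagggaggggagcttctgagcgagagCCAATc
Mthfd2: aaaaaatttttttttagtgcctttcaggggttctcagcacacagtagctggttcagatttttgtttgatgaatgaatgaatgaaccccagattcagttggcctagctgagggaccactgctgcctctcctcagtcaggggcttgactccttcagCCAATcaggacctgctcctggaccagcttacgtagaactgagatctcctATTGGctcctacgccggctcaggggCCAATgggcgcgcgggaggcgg
Asns: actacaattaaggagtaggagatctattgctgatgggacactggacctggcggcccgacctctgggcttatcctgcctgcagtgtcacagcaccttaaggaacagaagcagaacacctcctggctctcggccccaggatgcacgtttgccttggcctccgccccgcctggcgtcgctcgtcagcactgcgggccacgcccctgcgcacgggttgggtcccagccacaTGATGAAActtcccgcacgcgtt
The 7 genes matched 8 windows by symbol, since Psat1 has a second start. CCAAT, the box bound by NF-Y, stood in 5 of the 8 windows and in 5 of the 7 genes (Psat1, Phgdh, Psph, Shmt1 and Mthfd2), while 33.8% of all 32851 windows held it. In Mthfd2 it occurred 3 times, with first bases at -96, -47 and -22 from the start, and in Psat1 at -36 and -6. TGATGNAA, the core of the element bound by ATF4 with C/EBP factors, stood in the Asns window alone, at -23, and in 3.452% of all windows. CACGTG, the E-box that MYC binds, was in none of the 8 windows and in 6.021% of all windows. The 3 motifs do not overlap each other in these windows, and a match is a description of letters and not a binding site.

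Psat1 is described here by group, and of its tested differences only BRAF RG against luc RG passed in the main fit. On the tested probe its intensity was 1533, 1371.3 and 1095.8 in BRAF RG, 1452.6, 1551.9 and 959.7 in BRAF G, 787.4, 845.3 and 752.7 in BRAF R and 1059.3, 1115.8 and 924.5 in BRAF NEG (mice 1, 2 and 3), against 520.6 and 697.7 in luc RG and 520.6 and 563.1 in luc G (mice 1 and 2). The BRAF G and luc G values are those that chose the genes, so their separation is fixed by the choice. Without them, 9 of 9 arrays of BRAF RG, BRAF R and BRAF NEG lay above both luc RG arrays, and 8.09% of all genes were separated that way. These 9 arrays come from the same 3 mice whose G arrays led the choice. They are neither 9 replicates nor independent of the choice. The order of the group means on the log2 scale was BRAF RG 10.37 ± 0.25, BRAF G 10.34 ± 0.38, BRAF NEG 10.01 ± 0.14 and BRAF R 9.63 ± 0.08 (SD, n = 3 each), then luc RG 9.24 ± 0.30 and luc G 9.08 ± 0.08 (SD, n = 2 each). BRAF RG and BRAF G, BRAF G and BRAF NEG, and luc RG and luc G overlap, so these neighbours are not separated beyond their spread. BRAF NEG and BRAF R do not overlap, nor do BRAF R and luc RG (15.3% of all genes lay higher in BRAF R without overlap), and neither of these differences passed its test.

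**Figure D1:**
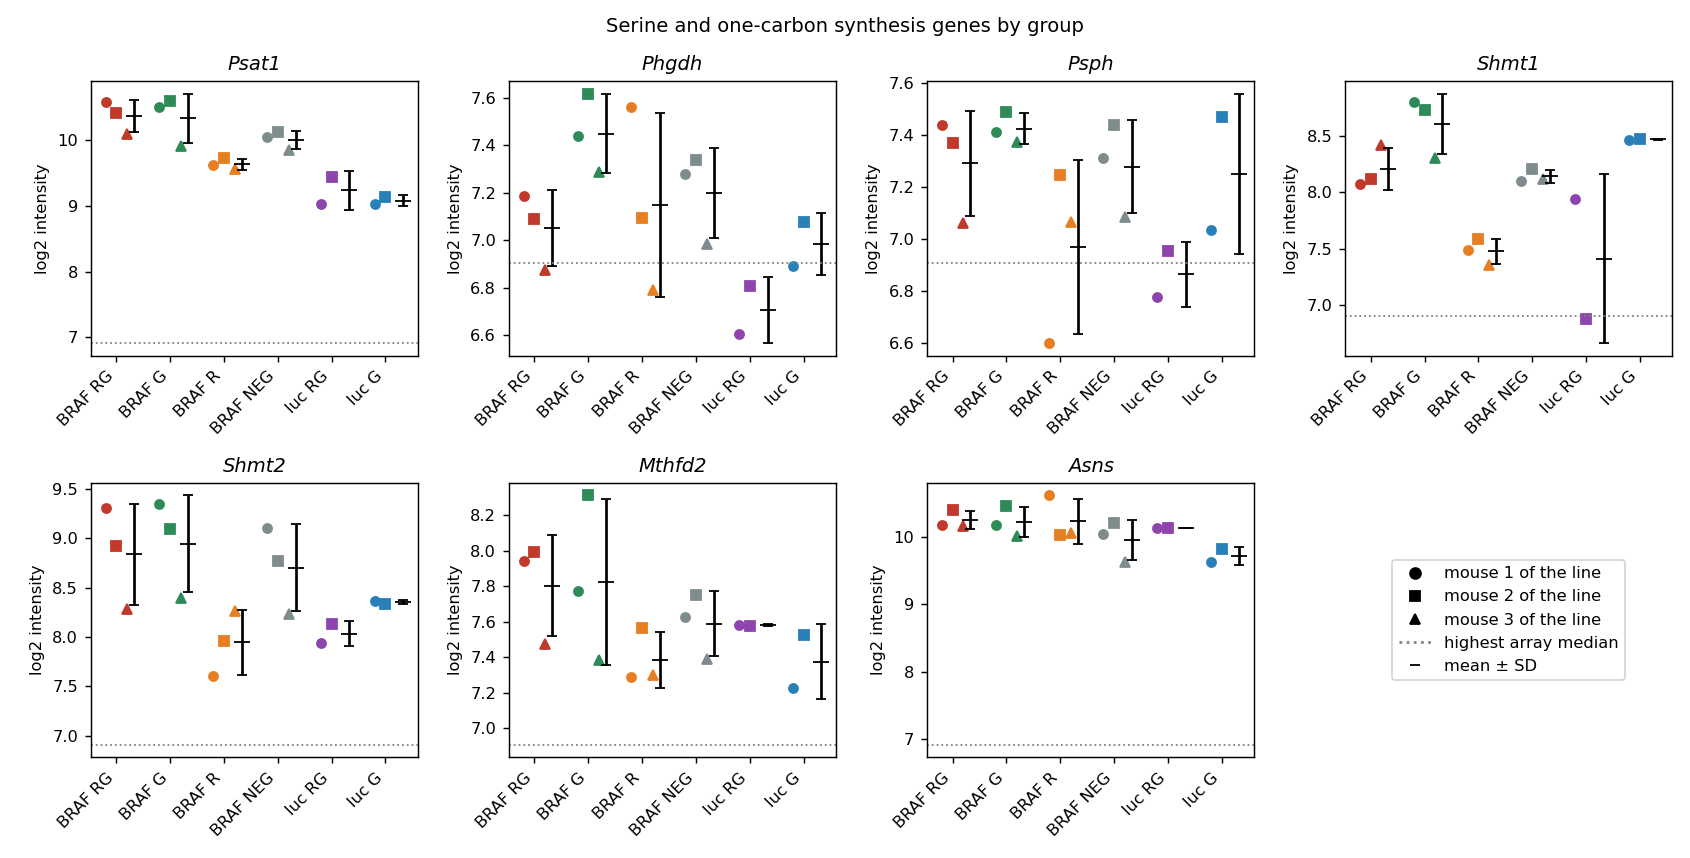
Log2 intensity of the tested probe of each of the 7 genes (y axis, its own scale in each panel) in the 6 sorted groups (x axis); points are arrays, shaped by mouse, bars are the mean ± SD, and the dotted line is the highest array median. Psat1 lies higher on the 9 arrays of BRAF RG, BRAF R and BRAF NEG than on both luc RG arrays. Its G arrays, from the same mice, are those that chose the genes. Phgdh and Psph lie close to the array median in several groups.

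In the comparison that chose the genes, BRAF G against luc G, Psat1 differed by 1.26 on the log2 scale (2.39-fold), rank 15 from the top of 10607 genes. The other members' differences were 0.59 for Shmt2, 0.50 for Asns, 0.47 for Phgdh, 0.45 for Mthfd2, 0.17 for Psph and 0.14 for Shmt1. In that comparison 0.217% of all genes passed an adjusted p of 0.05, and nothing is read from the members' values in it. Psat1 is given without a test wherever G arrays enter: it differed by 0.03 between BRAF RG and BRAF G, by -0.33 between BRAF NEG and BRAF G and by 0.15 between luc RG and luc G.

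The RG gate, high in red and green, was compared between the BRAF and luciferase lines. Its arrays did not enter the choice of the genes, but they come from the same mice as the G arrays that did, and BRAF arrays of the same mouse deviated together, so the comparison is not independent of the choice. Psat1 rose in BRAF RG relative to luc RG by 1.13 ± 0.22 on the log2 scale (SE, 95% interval 0.67 to 1.59, 2.19-fold, adjusted p = 0.00358). Shmt1, the cytosolic serine hydroxymethyltransferase, rose by 0.79 ± 0.25 (adjusted p = 0.0399). The other 5 genes did not pass: Shmt2 differed by 0.80 ± 0.33 (adjusted p = 0.104), Psph by 0.43 (adjusted p = 0.172), Phgdh by 0.35 (adjusted p = 0.278), Mthfd2 by 0.22 (adjusted p = 0.556) and Asns by 0.12 (adjusted p = 0.745). So 2 of the 7 genes were higher and 0 lower, where 16.6% of all genes were called, 9.55% higher and 7.05% lower. The members' median difference was 0.43, against -0.01 over all genes. In 6 of the 7 genes all BRAF RG arrays lay above both luc RG arrays, and Mthfd2 was the exception, where 23.3% of all genes were separated in that direction.

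These calls rest on few arrays, and luc RG was among the more variable groups. Estimated array weights were 0.41 on both luc RG arrays, in a range of 0.276 (BRAF R, mouse 1) to 2.81 (luc G). The main fit used no such weights and 1 shared spread. Without luc mouse 1 the Psat1 difference was 0.92 (adjusted p = 0.0566), and with only the compared arrays in the fit its adjusted p was 0.0534, over a range of 0.00233 to 0.0566 across the alternatives. Shmt1 in luc RG was 245.9 in mouse 1 and 118 in mouse 2, so without luc mouse 2 the Shmt1 difference was 0.26 (adjusted p = 0.513, range 0.00259 to 0.513), and it also missed the threshold without any 1 of the 3 BRAF mice. Beside these differences, the summed intensity of 18 cell cycle genes was 21506 to 26084 in BRAF RG and 11223 to 13385 in luc RG, with 12 of the 18 genes higher in BRAF RG. The summed intensity of 8 goblet cell genes was 14002 to 24692 in BRAF RG and 42955 to 47010 in luc RG, with 7 of the 8 lower in BRAF RG. For 13 enteroendocrine genes it was 16448 to 18831 in BRAF RG and 40885 to 41420 in luc RG, with 8 lower and 1 higher in BRAF RG. The part of these cell types and of cell division in the Psat1 and Shmt1 differences was not tested.

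**Figure D2:**
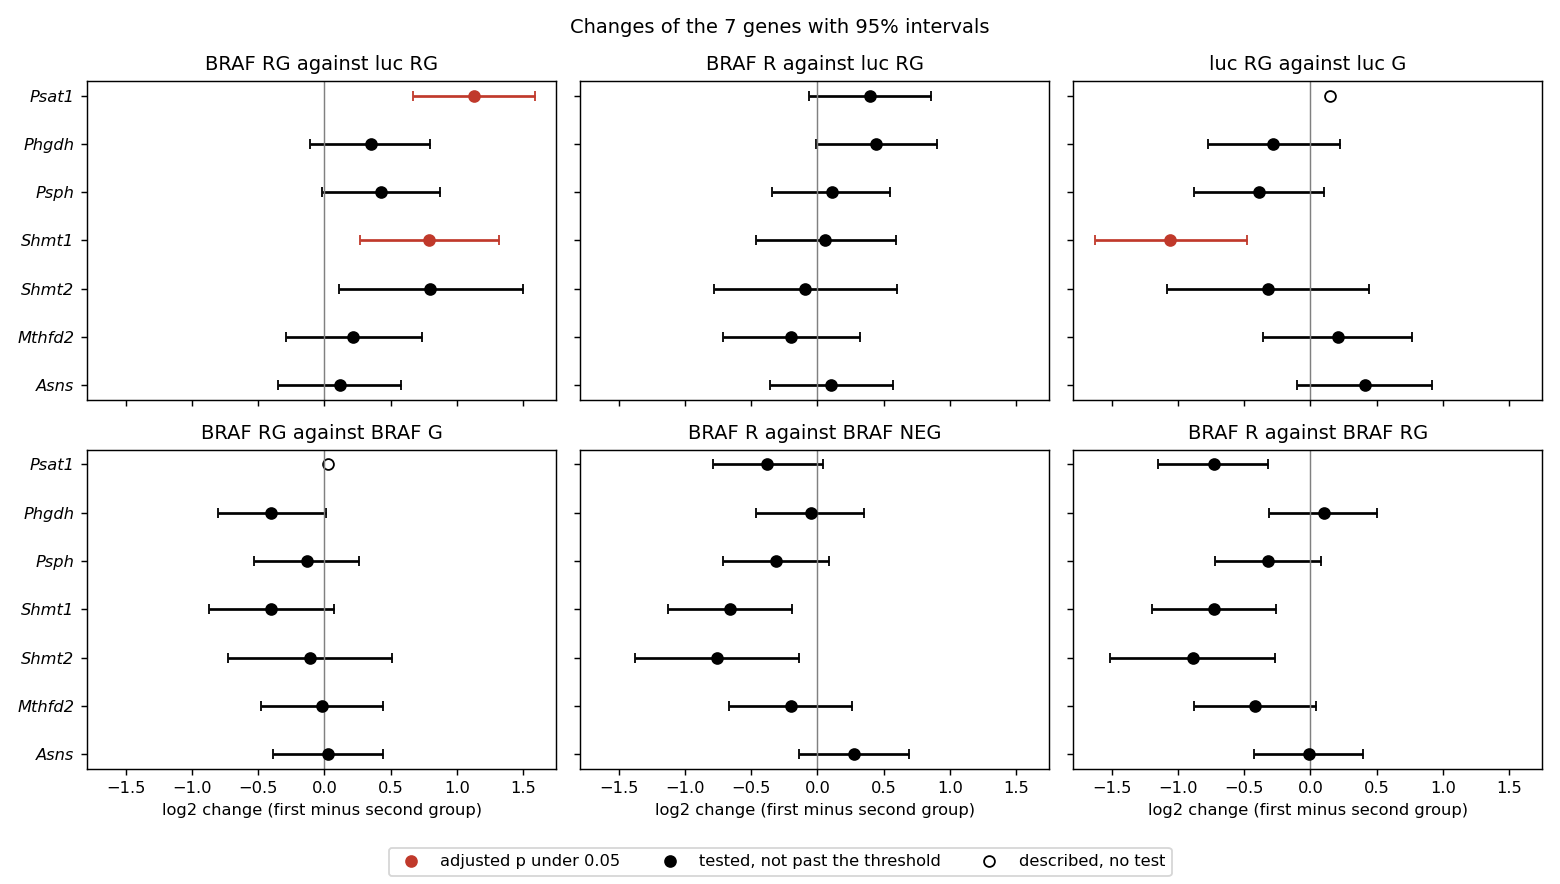
Log2 change of each of the 7 genes (rows) in 6 comparisons (panels), first-named minus second-named group, with 95% intervals; red points passed an adjusted p of 0.05, black points did not, and open circles are Psat1 where it is described without a test. Psat1 and Shmt1 passed in BRAF RG against luc RG, and Shmt1 in luc RG against luc G.

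BRAF R against luc RG, a comparison that was added after the data were seen, crosses gates as well as lines. There Psat1 differed by 0.40 (95% interval -0.06 to 0.86, adjusted p = 0.268). None of the 7 genes passed in limma, and 0 had an unadjusted p under 0.05, where 10.9% of all genes passed. Phgdh differed by 0.44 (adjusted p = 0.203), estimated as 1.19-fold when its luc RG signal, at or under the array median on both arrays, is held at the median.

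Phgdh, the entry enzyme of serine synthesis, was dim. Its intensity was 145.8, 136.3 and 117.2 in BRAF RG, 173.8, 196.6 and 156.3 in BRAF G, 189, 136.7 and 110.7 in BRAF R and 155.3, 161.7 and 126.6 in BRAF NEG, against 97.4 and 111.8 in luc RG and 118.6 and 134.8 in luc G. Both luc RG arrays were under the array median, as was the BRAF RG array at 117.2. With luc RG held at the median, BRAF RG was estimated as 1.11-fold higher. The fitted difference did not pass (limma adjusted p = 0.278). In BRAF RG against BRAF G all 3 mice were lower, without overlap (9.72% of all genes were separated that way), by -0.40 ± 0.19, and the difference did not pass (adjusted p = 0.567). That comparison used the G arrays behind the choice of the genes.

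Psph, which ends serine synthesis, had intensities of 173.7, 165.4 and 133.6 in BRAF RG, 170.2, 179.8 and 166 in BRAF G, 96.8, 151.8 and 133.9 in BRAF R and 158.8, 173.3 and 135.6 in BRAF NEG, against 109.5 and 123.8 in luc RG and 131 and 177.3 in luc G. The luc G arrays overlap those of every BRAF group, and 1 of the 12 BRAF arrays was above all luc arrays. No comparison of Psph passed.

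Shmt1 was low where the red gate was used without green in BRAF mice, and in luc RG. Its intensity was 270, 278.2 and 341.9 in BRAF RG, 444.4, 422.7 and 316.1 in BRAF G, 179.8, 191.6 and 163.7 in BRAF R and 274, 295.1 and 277.7 in BRAF NEG, against 245.9 and 118 in luc RG and 353.7 and 354.6 in luc G. All 3 BRAF R arrays lay below all arrays of BRAF RG (10.9% of all genes lay lower without overlap) and below all of BRAF NEG (16%). In BRAF R against BRAF NEG Shmt1 was lower in 3 of 3 mice, by -0.66 ± 0.22, and missed the threshold (adjusted p = 0.061). With the mouse, as read from the replicate number, as a block its adjusted p was 0.04, with a range of 0.018 to 0.241 across the alternatives. In luc RG against luc G it fell by 1.06 ± 0.27 on the log2 scale (adjusted p = 0.0201), and it was lower in 2 of 2 mice. Luc mouse 2 carried most of that change, with pair differences of -0.52 in mouse 1 and -1.59 in mouse 2, and without mouse 2 the change was -0.52 (adjusted p = 0.349, range 0.00142 to 0.349).

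Shmt2 differed between the BRAF mice by more than it did between BRAF RG, BRAF G and BRAF NEG. Its intensity was 632, 483.3 and 312.5 in BRAF RG, 649.3, 546.9 and 337.6 in BRAF G, 195, 248.7 and 307.9 in BRAF R and 551.5, 436.5 and 299.7 in BRAF NEG, against 245.9 and 279.6 in luc RG and 330 and 323.6 in luc G. Mouse 3 was the lowest of the BRAF mice in RG, G and NEG and the highest in R. In BRAF R against BRAF NEG the difference was -0.76 ± 0.29 (adjusted p = 0.106), and without mouse 3 it was -1.16 (adjusted p = 0.0144, range 0.0144 to 0.496). Without mouse 1, whose pair difference was -1.5, it was -0.39. A second Shmt2 probe, above the array median on 14 arrays, was under it on both luc RG arrays (85.4 and 79.5), so its differences are bounds. With luc RG held at the array median it was at least 2.09-fold higher in BRAF RG than in luc RG, where the tested probe gave 0.80 on the log2 scale, and at least 1.48-fold lower in luc RG than in luc G, where the tested probe gave -0.32. The mean of both probes gave a fitted difference of 1.20 in BRAF RG against luc RG (adjusted p = 0.0142, range 0.0142 to 0.324), and 0.93 with the second probe held in this way.

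Mthfd2 had intensities of 246.3, 254.9 and 177.8 in BRAF RG, 218.8, 318 and 166.8 in BRAF G, 156.2, 189.6 and 157.6 in BRAF R and 197.3, 215.5 and 167.7 in BRAF NEG, against 191.9 and 190.9 in luc RG and 149.7 and 184.1 in luc G. The BRAF and luc arrays overlap, and no comparison of Mthfd2 passed. Its BRAF R value was lower than its BRAF RG value in 3 of 3 mice, with a difference of -0.42 (adjusted p = 0.315).

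Asns had intensities of 1165.1, 1357.4 and 1150.8 in BRAF RG, 1162.2, 1416.3 and 1041.5 in BRAF G, 1582.4, 1045.3 and 1069.1 in BRAF R and 1062.9, 1182.1 and 794.4 in BRAF NEG, against 1124.6 and 1127.1 in luc RG and 791.7 and 905 in luc G. Both luc RG arrays lay above both luc G arrays, by 0.41 ± 0.24 on the log2 scale, and the difference did not pass (adjusted p = 0.279). Its 3 probes gave 0.12, -0.02 and -0.28 in BRAF RG against luc RG, so the sign there depends on the probe.

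**Figure D3:**
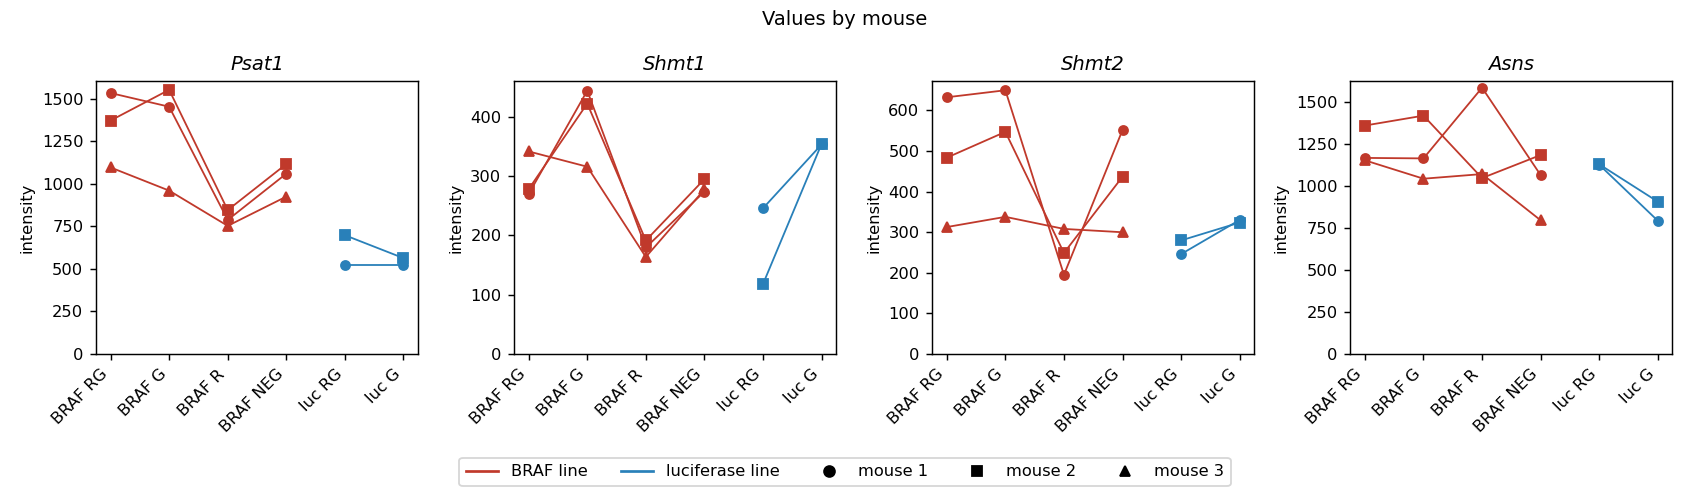
Intensity (y axis, from 0) of Psat1, Shmt1, Shmt2 and Asns in each fraction (x axis), with a line joining the fractions of 1 mouse; red lines are BRAF mice and blue lines luciferase mice, and point shapes give the mouse. Psat1 and Shmt1 are lower in BRAF R than in BRAF RG in all 3 mice, while Shmt2 in mouse 3 hardly differs between fractions (299.7 to 337.6).

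Within the BRAF line the red gates were set against each other and against their red-low counterparts. In BRAF RG against BRAF G, 0 of the 6 tested members passed in limma and 0 had an unadjusted p under 0.05, where 0.801% of all genes passed. In BRAF NEG against BRAF G it was again 0 of 6, and 0 at an unadjusted p under 0.05, where 2.21% of all genes passed, and Shmt1 had the widest difference, -0.47 (adjusted p = 0.647). Both comparisons share the BRAF G arrays with the choice of the genes. In BRAF R against BRAF NEG, 0 of 7 passed in limma and 2 (Shmt1 and Shmt2) had an unadjusted p under 0.05, where 12.6% of all genes passed, and the members' median was -0.31 against -0.01 over all genes. Psat1 was lower there in 3 of 3 mice, by -0.38 ± 0.19 (adjusted p = 0.232). Psat1 and Shmt1 did not overlap between these groups and were lower in BRAF R, as 16% of all genes were.

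BRAF R against BRAF RG gave the widest Psat1 difference within the line. Psat1 was lower in BRAF R in 3 of 3 mice, without overlap, by -0.73 ± 0.19 (adjusted p = 0.0586). With the mouse as a replicate block the adjusted p was 0.0188, with a range of 0.0188 to 0.45 across the alternatives. Shmt1 differed by -0.73 ± 0.22 (adjusted p = 0.0908) and Shmt2 by -0.89 ± 0.29 (adjusted p = 0.117), while Asns differed by -0.01 (adjusted p = 0.979). Without BRAF mouse 3, whose pair difference was -0.02, Shmt2 differed by -1.33 (adjusted p = 0.0439, range 0.0439 to 0.627), and without BRAF mouse 1 by -0.49. Shmt1 passed when 1 of the luc mice, whichever it was, was left out (adjusted p = 0.0447, range 0.0447 to 0.396). Of the 7 genes 0 passed in limma and 3 had an unadjusted p under 0.05, where 2.21% of all genes passed. The same 3 genes (Psat1, Shmt1 and Shmt2) lay lower without overlap, as 10.9% of all genes did. The difference between the red-gate changes, BRAF R minus NEG less BRAF RG minus G, was added after the data were seen and shares the G arrays. It passed for none of the 6 members tested in limma (adjusted p 0.894 to 0.985, 0 at an unadjusted p under 0.05), where 135 genes passed over the whole array.

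The same cell cycle sum moved with these fractions. It was 12421 to 14972 in BRAF R, against 21506 to 26084 in BRAF RG and 20851 to 23045 in BRAF NEG. Of 18 cell cycle genes, 7 were lower in BRAF R than in BRAF NEG and 5 lower than in BRAF RG. Over all genes 12.6% and 2.21% were called in these comparisons, in either direction. Enteroendocrine genes summed to 59777, 29586 and 26320 in BRAF R (mice 1, 2 and 3), so 1 array sets the upper end. They summed to 16448 to 18831 in BRAF RG and 13045 to 19854 in BRAF NEG. Leukocyte genes summed to 3777 to 5094 in BRAF R and 23590 to 34696 in BRAF NEG, with 17 of 20 lower in BRAF R. Their part in the members' differences was not tested.

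In the luciferase line, luc RG against luc G, 1 of the 6 tested members was lower (Shmt1) and 0 higher, where 11.9% of all genes were called and 6.78% lower. All 6 tested members were separated between the 2 groups, where 59.3% of all genes were. Phgdh, Psph and Shmt2 were lower in luc RG in both mice and Mthfd2 and Asns higher, and none of these 5 passed. The cell cycle sum was 11223 to 13385 in luc RG and 23422 to 25149 in luc G, with 12 of 18 genes lower, and the goblet sum 42955 to 47010 against 8236 to 8902, with 8 of 8 higher. Their part in the Shmt1 change was not tested.

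The pathway around the 7 genes was followed with 109 listed genes in 8 lists, of which 85 were tested. In BRAF RG against luc RG 24.7% of them were called, 10 higher and 11 lower, where 16.6% of all genes were called. In luc RG against luc G it was 9 higher and 5 lower (16.5%, against 11.9% of all genes), and in BRAF R against BRAF NEG 3 higher and 4 lower (8.24%, against 12.6%). In BRAF RG against BRAF G and in BRAF NEG against BRAF G 0 were called in limma, and 6 and 5 had an unadjusted p under 0.05. BRAF RG against luc RG and luc RG against luc G share the luc RG arrays.

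Several genes of the folate cycle, which carries the carbon units from serine, were called. The cell cycle sum given above differed between the same groups, and its part in these folate gene changes was not tested. Of 11 tested folate genes, 4 rose and 1 fell in BRAF RG relative to luc RG, and the list median was 0.45. Over all genes 9.55% rose and 7.05% fell there. Atic, which makes the purine precursor IMP, rose by 0.89 ± 0.22 (adjusted p = 0.0123), Mthfd1, the cytosolic counterpart of the mitochondrial folate enzymes, by 0.83 ± 0.20 (adjusted p = 0.0134) and Gart, an early purine enzyme, by 0.69 ± 0.22 (adjusted p = 0.0441). In BRAF R relative to BRAF NEG 4 of the 11 fell: Mthfd1 by 0.93 on the log2 scale (adjusted p = 0.00396), Gart by 0.80 (adjusted p = 0.0157), Atic by 0.68 (adjusted p = 0.03) and Tyms, thymidylate synthase, by 0.63 (adjusted p = 0.0373). Over all genes 12.6% were called there, in either direction. Mthfd1 also fell in BRAF R relative to BRAF RG by 0.88 on the log2 scale (adjusted p = 0.0235). In luc RG relative to luc G, Mthfd1 fell by 1.01 (adjusted p = 0.00907) and Tyms by 0.81 (adjusted p = 0.0327), and Mtfmt, which formylates the mitochondrial initiator tRNA, rose by 0.70 (adjusted p = 0.0427).

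**Figure D4:**
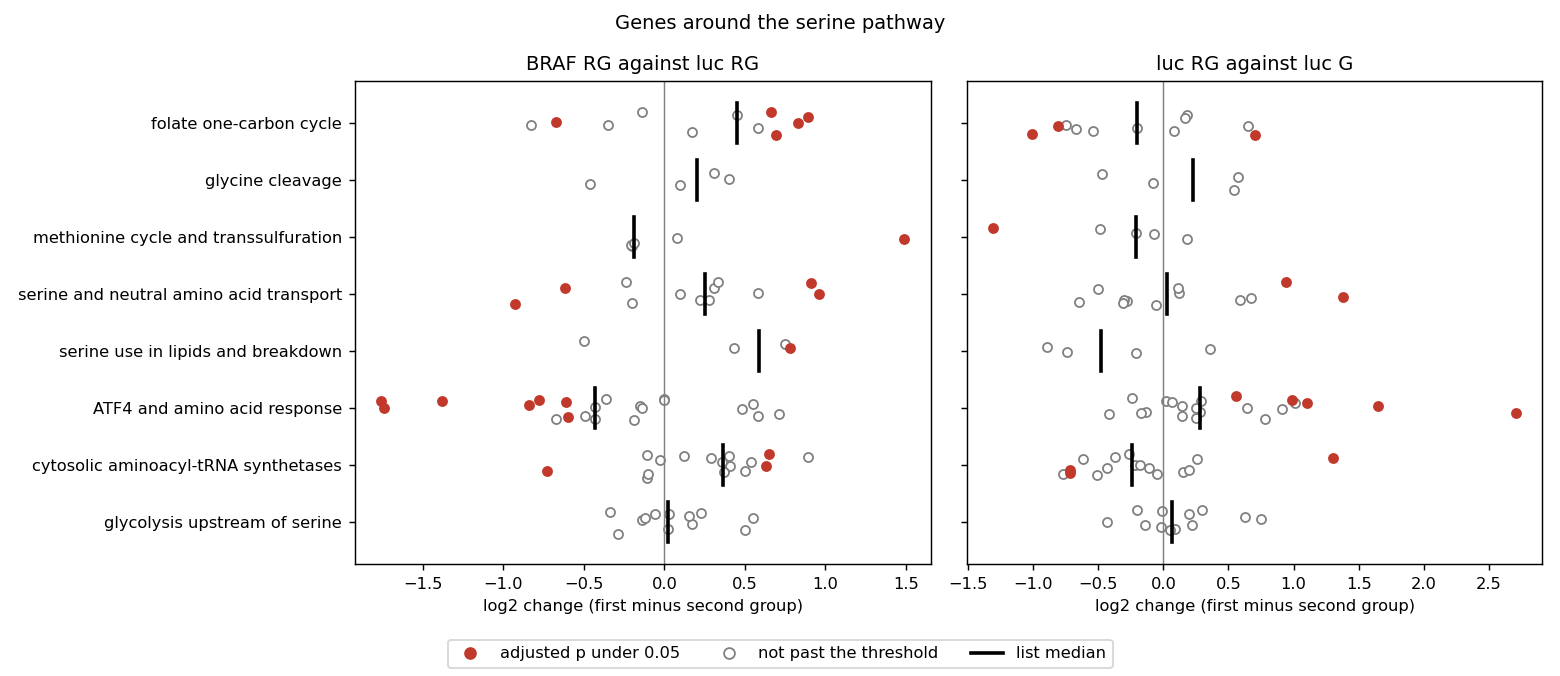
Log2 change (x axis, first-named minus second-named group) of each tested gene of the 8 pathway lists (rows) in BRAF RG against luc RG and in luc RG against luc G; red points passed an adjusted p of 0.05, open points did not, and bars mark list medians. The ATF4 list has a median of -0.43 in the first panel and 0.28 in the second, and both panels share the luc RG arrays.

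Genes of the ATF4 and amino acid response list fell or did not pass in BRAF RG relative to luc RG. Of 21 tested, 0 rose and 7 fell there, with a median of -0.43, where 9.55% of all genes rose and 7.05% fell. Nupr1, a stress-induced nuclear protein, averaged 8.46 ± 0.36 in BRAF RG and 10.20 ± 0.06 in luc RG on the log2 scale (SD, n = 3 and 2), and fell by 1.74 (limma adjusted p = 0.0431). Gadd45a, a stress gene of growth arrest, fell by 1.38 (adjusted p = 0.00353), and Gpt2, mitochondrial alanine aminotransferase, by 1.76 (adjusted p = 0.000665), with 1 of 3 BRAF RG arrays above the array median. In luc RG relative to luc G 5 of the 21 rose and 0 fell, with Nupr1 rising by 2.71 (adjusted p = 0.00948), Gpt2 by 1.65 (adjusted p = 0.00167) and Gadd45a by 1.10 (adjusted p = 0.0222). Over all genes 11.9% were called there, 6.78% lower. In BRAF R relative to BRAF NEG Ddit4, an inhibitor of mTORC1, rose by 0.60 (adjusted p = 0.0391) and Chac1, which breaks down glutathione, was at least 1.28-fold higher (adjusted p = 0.048).

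Among 12 tested amino acid transport genes 2 rose and 2 fell in BRAF RG relative to luc RG, where 16.6% of all genes were called. Slc38a1, a glutamine carrier, rose by 0.96 (adjusted p = 0.0497), Slc7a5, a large neutral amino acid carrier, rose by 0.91 (adjusted p = 0.0117) and Sfxn3, of the mitochondrial serine carrier family, fell by 0.93 (adjusted p = 0.031). Slc7a5 fell in BRAF R relative to BRAF RG by 0.94 (adjusted p = 0.0237). In luc RG relative to luc G Sfxn3 rose by 1.38 (adjusted p = 0.008) and Slc38a2, a neutral amino acid carrier, by 0.94 (adjusted p = 0.012). Sptlc1, a subunit of the enzyme that joins serine to a fatty acid in sphingolipid synthesis, was the 1 of 4 genes of serine use that rose in BRAF RG relative to luc RG, by 0.78 (adjusted p = 0.0217). Ahcy, which breaks down S-adenosylhomocysteine, rose by 1.49 (adjusted p = 0.01) there, with an SD of 1.11 between the luc RG arrays. Of 16 tested tRNA synthetases, Hars (0.65, adjusted p = 0.0153) and Farsb (0.63, adjusted p = 0.0348) rose and Wars fell by 0.73 (adjusted p = 0.0227) in that comparison. Of the 4 glycine cleavage and 12 glycolysis genes 0 passed there in limma, and 0 and 1 had an unadjusted p under 0.05.

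The members varied together to different degrees. Over the 16 arrays, Pearson's r with Psat1 on the log2 scale was 0.755 for Shmt2, 0.722 for Mthfd2, 0.619 for Phgdh, 0.592 for Psph, 0.490 for Asns and 0.370 for Shmt1. Across the 21 pairs of members, r was above 0 in 19, with a median of 0.51 and a range of -0.13 to 0.78. After the group means were taken out it was above 0 in 16 pairs, with a median of 0.44. The arrays share mice and fractions, so these values describe the 16 arrays only. In the BRAF line mouse 3 gave the lowest value in 22 of 28 combinations of gene and gate, including all 4 gates for Psat1 and for Phgdh. These combinations are not independent. Same-mouse BRAF arrays deviated together over all genes (median r 0.319). The matching share and pair correlations over all genes were not computed, so neither is read as particular to the members.

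The genes most like Psat1 over the 16 arrays were Gpx2 (r = 0.939), Mtap (0.908), Cops4 (0.897), Ltv1 (0.896) and Bspry (0.882). Over the 6 group means they were Gspt1 (0.991), Cnga4 (0.986), Gpx2 (0.984), Tdrd12 (0.983) and Ltv1 (0.982). Of these, Tdrd12 averaged 6.50 (luc G) to 6.91 (BRAF RG) on the log2 scale, around or under the array median, with SDs up to 0.47. Cnga4 averaged only 7.06 (luc G) to 7.25 (BRAF RG), with SDs up to 0.26. Gpx2, the gastrointestinal glutathione peroxidase, averaged 11.95 ± 0.17 in BRAF RG, 12.00 ± 0.21 in BRAF G, 11.25 ± 0.18 in BRAF R and 11.66 ± 0.17 in BRAF NEG (SD, n = 3 each), against 10.81 ± 0.06 in luc RG and 10.93 ± 0.01 in luc G on the log2 scale (SD, n = 2 each). All these genes were picked as the highest of 10607 correlations and carry no test.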

How the data were processed

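RNA of 16 sorted fractions was measured on Illumina bead arrays. The deposited table holds linear intensity values for 25697 probes, made with GenomeStudio per the submitters' processing notes, with its version and normalization not given in the sources used here. Sorted values of the arrays differ by at most 1.2, so the deposited intensities were quantile-normalized, and a lowest value of 55.7 shows that background was apparently not subtracted, which understates folds of dim genes. Another table, with 32 columns whose running numbers match no label, was not used.

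Intensities were put on the log2 scale and tested in limma 3.58.1 (R 4.3.3), with the 6 groups fitted over all 16 arrays and no background correction or block. Probes had to exceed their array's median on 2 or more arrays, with 1 probe a gene (the highest mean). P-values were Benjamini-Hochberg adjusted over 10607 genes, at a threshold of 0.05. The detection filter and background correction that need the unused table were not applied. The limma fit was tested on simulated data with independent noise and no shared mouse effect. That run does not cover the correlation of same-mouse arrays or the other steps.

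The members, lists and tests were chosen with earlier results of these data known. In each pathway list and comparison, at most the 3 genes with the largest change among those called are named, except that Tyms in BRAF R against BRAF NEG was named as well, after its value was seen, so that all 4 genes called there have a value. For "at least" folds and bounds, a group in which no array exceeded its median was set to that median. These are point estimates under that rule, with no interval or test of their own. Probes were named through the platform annotation, and promoters come from RefSeq (GRCm38.p6). The replicate number in each sample title was read as the mouse. Same-mouse BRAF arrays deviated together (r above 0.1 in 18 of 18 pairs, median 0.319), and luc arrays had r = 0.046, with 2 mice. The luc values thus do not show the pairing. The number of arrays, 2 or 3 a group, limits the precision. Alternatives tried were the mouse block, other filters, background, centring, probe, weight and prior settings, fits on the compared arrays alone, and leaving out mice or arrays.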

Additional observations from a re-analysis of the deposited data

How the results depend on the processing

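Of 854 member values recomputed under alternatives, 30 had the other sign, in 13 of 56 values; those of the tested members follow. With the mean of all probes, Asns was -0.01 in BRAF RG against BRAF G, -0.06 in BRAF RG against luc RG and -0.11 in BRAF R against luc RG, where Shmt2 was 0.55 with its second probe under the array median on both luc RG arrays. With array weights, Phgdh was -0.10 in BRAF R against BRAF RG, and Shmt2 0.09 and Asns -0.01 in BRAF R against luc RG. Leaving out BRAF mouse 1 gave Phgdh -0.04 in BRAF R against BRAF RG and, in BRAF R against luc RG, Shmt2 0.08 and Asns -0.09; leaving out only its R array gave -0.11, 0.08 and -0.09. Leaving out BRAF mouse 2 gave Mthfd2 0.13 in BRAF RG against BRAF G, Phgdh 0.04 in BRAF R against BRAF NEG, Asns 0.17 in BRAF R against BRAF RG and Psph -0.03 in BRAF R against luc RG. Leaving out BRAF mouse 3 gave Asns -0.03 in BRAF RG against BRAF G and 0.03 in BRAF R against BRAF RG, and Phgdh 0.02 in BRAF R against BRAF NEG. The other ends of these leave-out ranges were 0.07 for Asns in BRAF RG against BRAF G, -0.26 for Phgdh in BRAF R against BRAF NEG, 0.19 for Phgdh and -0.24 for Asns in BRAF R against BRAF RG, and 0.29 for Psph, 0.59 for Shmt1, -0.25 for Shmt2 and 0.21 for Asns in BRAF R against luc RG. Leaving out luc mouse 2, or its RG array, gave Shmt1 -0.47 and Shmt2 0 in BRAF R against luc RG. The cause was not tested. With the mouse as a replicate block, 1 member was lower in BRAF R against BRAF NEG (Shmt1, adjusted p = 0.04) and 1 in BRAF R against BRAF RG (Psat1, adjusted p = 0.0188), and the block changed no other member's call. In BRAF RG against luc RG, 2 members higher became 1 without the filter, 1 with array weights and 0 with only the compared arrays. When a BRAF mouse was left out, 1 to 2 were higher. With the mean of all probes Shmt2 passed there as well (adjusted p = 0.0142). Without BRAF mouse 3 Shmt2 passed (adjusted p = 0.0142) and Shmt1 did not (adjusted p = 0.147). Leaving out luc mouse 1 gave a Psat1 difference of 0.92, and leaving out luc mouse 2 a Shmt1 difference of 0.26. In luc RG against luc G, 1 lower became 0 with only the compared arrays and 0 to 1 when a mouse was left out, and 0 without the luc RG array of mouse 2. In BRAF R against BRAF NEG, 0 lower became 1 with array weights and 0 to 1 when a mouse was left out, and in BRAF R against BRAF RG 0 to 1. Genes called over the whole array ranged from 343 to 2269 (1761 as reported) in BRAF RG against luc RG, 601 to 1778 (1332) in BRAF R against BRAF NEG, 341 to 1853 (1261) in luc RG against luc G, 0 to 573 (234) in BRAF R against BRAF RG, 17 to 292 (85) in BRAF RG against BRAF G, 53 to 473 (234) in BRAF NEG against BRAF G and 49 to 1522 (1161) in BRAF R against luc RG.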
